A study of Mus musculus with 9 samples.

Results

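Small nucleolar RNAs (snoRNAs) were followed in immortalized mouse embryonic fibroblasts after knockdown of HSF1 or RPA1. The members were all genes whose row in the deposited table carried a single gene symbol of the form Snord or Snora followed by a number: 51 genes of 19938 tested, 31 of them box C/D (Snord) and 20 box H/ACA (Snora). They were held by 56 rows, and for the 5 genes with 2 rows the row with the higher mean over the arrays was used. Members were taken by symbol alone, though the set was chosen with earlier results of these data known. No filter on low signals was applied, so all 51 were tested.

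The study asked whether HSF1, the transcription factor of the heat shock response, and RPA, the complex that coats single-stranded DNA, act together on gene expression. It measured 9 Affymetrix Mouse Gene 1.0 ST arrays in 3 groups of 3: a control shRNA (titled scr), an shRNA against HSF1 and an shRNA against RPA1. All cells, controls included, were immortalized fibroblasts of ICR background at 37 °C in medium with 10% serum, exposed to an adenovirus carrying the shRNA for 2 h and grown for a further 70 h, with no heat shock named in the labels. Nothing in the labels ties the arrays of a group to separate cultures, so p-values measure only the spread between these samples. The labels give no shRNA sequence and distinguish no more than 1 shRNA per target.

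Box C/D snoRNAs pair with ribosomal RNA and direct methylation of its ribose by fibrillarin, and box H/ACA snoRNAs direct conversion of uridine to pseudouridine by dyskerin. A few of both classes (U8, U14, U17 and U22 among them) are needed for cleavage of the ribosomal RNA precursor rather than for modification. In mammals most snoRNAs are cut from introns of other genes, very often genes of ribosomal proteins or noncoding host transcripts, after splicing and debranching, while U8 has its own promoter.

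In the RefSeq gene table (GRCm38.p6) all 51 symbols were found, with gene lengths of 45 to 205 bases and medians of 68 for box C/D and 125 for box H/ACA. In 50 of the 51 the gene lay inside another gene, and there were 40 such hosts. Ribosomal protein genes held 21 members, other protein-coding genes 16 and noncoding genes 13, and 10 hosts held 2 members each. Snord118, which encodes U8, was the member with no host; its nearest gene, Tmem107, lay 133 bases away. RNA was purified on silica columns and copied into cDNA, per the labels, so the signal of a mature snoRNA and that of a longer RNA still containing it cannot be told apart here.

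The tables at hand hold the sequence of no snoRNA as such, but they do hold a microRNA annotated over one, which shows the class-defining box. All 21 bases of mature mmu-miR-5121 (RefSeq, GRCm38.p6, chr7:45126925-45126945, minus strand) lie in the span of Snord33, a box C/D gene inside the ribosomal protein gene Rpl13a, and the first of them lies at an edge of that gene. In the mature sequence the capitals mark UGAUGA, the core of box C, which starts at position 7 counted from the 5′ end; in the hairpin (chr7:45126918-45126991, minus strand) they mark the 28 of 74 bases inside Snord33.
mmu-miR-5121: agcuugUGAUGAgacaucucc
mmu-mir-5121 hairpin: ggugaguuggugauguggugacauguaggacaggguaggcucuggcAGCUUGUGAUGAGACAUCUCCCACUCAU
Of 383 mature mouse microRNAs of 21 bases in the RefSeq table, 2 (0.52%) hold UGAUGA.

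Since most members have no promoter of their own, the sequences that start their transcripts are those of the hosts. Windows of 300 bases around the start site, most of them upstream, were available for 30 host genes and were searched for GAANNTTC (paired heat shock element units, equal to its own reverse complement) and for CACGTG (an E-box, also its own reverse complement), which do not overlap in these windows. GAANNTTC was found in 1 of 30 host genes, Ipo7, and in 7.86% of all 32851 windows. CACGTG was found in 6 of 30 (Eef2, Gm36220, Ipo7, Rpl13a, Rpl23 and Wdr43) and in 7.15% of all windows. A match describes letters only, and so does its absence. The windows of 4 hosts are shown, with both motifs in capitals: Ipo7 (Snora23), the window with both motifs; Rpl13a (Snord33 and Snord35a), with the E-box; and Rpl4 (Snord16a) and Snhg12 (Snora44 and Snora16a), with neither, whose snoRNAs had the differences described further on. Their positions are chr7:110018065-110018364 (plus strand), chr7:45128696-45128995 (minus), chr9:64173137-64173436 (plus) and chr4:132308428-132308727 (plus) in RefSeq GRCm38.p6.
Ipo7: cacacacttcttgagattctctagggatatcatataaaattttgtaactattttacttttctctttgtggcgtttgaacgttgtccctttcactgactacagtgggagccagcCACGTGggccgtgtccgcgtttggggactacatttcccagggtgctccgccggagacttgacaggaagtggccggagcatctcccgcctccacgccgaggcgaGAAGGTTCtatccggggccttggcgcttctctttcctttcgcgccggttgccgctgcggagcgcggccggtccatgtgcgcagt
Rpl13a: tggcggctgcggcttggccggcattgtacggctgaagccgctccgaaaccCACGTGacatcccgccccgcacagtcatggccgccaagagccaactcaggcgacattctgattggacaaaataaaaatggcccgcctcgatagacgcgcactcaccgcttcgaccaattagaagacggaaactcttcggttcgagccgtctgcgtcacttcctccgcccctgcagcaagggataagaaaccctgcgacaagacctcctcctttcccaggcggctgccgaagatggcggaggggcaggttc
Rpl4: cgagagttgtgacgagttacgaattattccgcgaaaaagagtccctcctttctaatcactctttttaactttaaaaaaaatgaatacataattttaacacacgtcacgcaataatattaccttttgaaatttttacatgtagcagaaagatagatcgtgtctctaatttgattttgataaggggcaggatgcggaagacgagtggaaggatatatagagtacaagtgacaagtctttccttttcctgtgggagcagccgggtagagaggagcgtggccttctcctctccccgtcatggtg
Snhg12: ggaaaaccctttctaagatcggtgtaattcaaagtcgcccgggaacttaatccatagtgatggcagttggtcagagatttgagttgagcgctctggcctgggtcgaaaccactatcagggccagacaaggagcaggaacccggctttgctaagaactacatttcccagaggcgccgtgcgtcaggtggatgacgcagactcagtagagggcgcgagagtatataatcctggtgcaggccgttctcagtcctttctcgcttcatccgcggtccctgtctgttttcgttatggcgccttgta

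Array medians over all rows lay between 7.72 and 7.81 on the log2 scale, and each array correlated with its group mates at 0.992 to 0.995 on average. Rpa1 fell under RPA1 shRNA (log2 -2.02 ± 0.04, SE, limma adjusted p = 3.5e-08) and stood at -0.08 ± 0.04 under HSF1 shRNA (adjusted p = 0.27). Hsf1 was not among the genes tested, so its knockdown was not checked. Fibroblast markers differed in signal in the controls, with means of 13.03 for Col1a1 and 14.01 for Vim but 7.95 for Thy1 and 5.37 for Lum. The last 2 lay below the mean signal of the median gene (8.39). Under RPA1 shRNA 7 of 10 fibroblast markers fell and 0 rose (30.1% of all genes passed in either direction), and of 3 blood cell markers Cd68 rose (2.06 ± 0.17, adjusted p = 2.8e-05) while Ptprc and Adgre1 had group means of 5.96 to 6.09. Under HSF1 shRNA 4 of 10 fibroblast markers fell and 1 rose, and 0 of 3 blood cell markers passed (16.1% of all genes). Of 4 neural markers Nes (0.49 ± 0.08 and 0.81 ± 0.08) and Tubb3 (0.52 ± 0.08 and 0.33 ± 0.08) rose under HSF1 and RPA1 shRNA in turn, and Snap25 (0.16 ± 0.05) rose under RPA1 shRNA. Of 2 endothelial markers Pecam1 rose under both (0.20 ± 0.05 and 0.17 ± 0.05), and 0 of 4 epithelial markers passed against the control. The part of these shifts in the snoRNA differences was not tested, and fewer cells of a type and less RNA per cell cannot be told apart in bulk RNA.

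2 arrays stood apart from their groups in the snoRNA genes (probe signals for 51 genes, each minus its control mean). The medians over the members were -0.03, 0.00 and 0.03 in control arrays 1 to 3, 0.03, 0.03 and -0.31 in HSF1 shRNA arrays 1 to 3, and -0.18, -0.18 and 0.11 in RPA1 shRNA arrays 1 to 3. HSF1 shRNA array 3 thus lay low and RPA1 shRNA array 3 high. Array 3 was the lowest of the HSF1 shRNA group for 48 of 51 members, against 7717 of 19938 genes in all (38.7%). In the RPA1 shRNA group array 3 was the highest for 42 of 51 members, against 39.4% of all genes. Over all genes the corresponding array medians lay between 0.00 and 0.06. The spread within groups was accordingly wide: the median residual SD was 0.185 for the members and 0.0868 for all genes, and 49 of the 51 members lay above the latter. What set these arrays apart was not tested, and results are given with them and, where the results turn on them, without them.

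**Figure D1:**
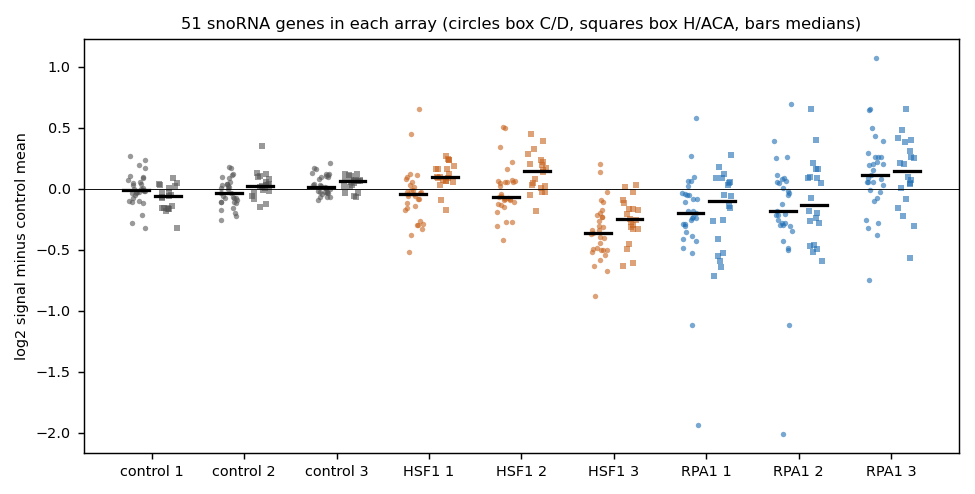
Each point is 1 snoRNA gene in 1 array, as log2 signal minus the mean of the 3 control arrays; circles are the 31 box C/D genes, squares the 20 box H/ACA genes, and bars their medians. HSF1 shRNA array 3 sits low (medians of -0.36 and -0.25) and RPA1 shRNA array 3 high (0.11 and 0.15) relative to the other arrays of their groups.

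RPA1 shRNA against the control asked which members differ when RPA1 is reduced. U8 fell almost 3-fold, Snord61 and Snora44 fell by smaller amounts, and Snord16a and Snord42b rose. In all, 9 of 51 members passed at a limma adjusted p under 0.05, 2 higher and 7 lower. That is 17.6% of the members against 30.1% of all 19938 genes (15.4% higher, 14.7% lower), so the share called was below the background with all arrays. Without both HSF1 shRNA array 3 and RPA1 shRNA array 3, a setting chosen on the members themselves, the order was reversed, at 41.2% and 35.8%. It was kept without RPA1 shRNA array 3 alone (29.4% and 36.3%). With array weights 23 of 51 members and 45.5% of all genes passed, shares too close to give an order. The 3 arrays of each group did not overlap for 13 members, against 41% of all genes. Besides the 9 called and Snora16a, these were Snora31 (0.30, adjusted p = 0.15), Snord49b (-0.27, adjusted p = 0.094) and Snord57 (-0.33, adjusted p = 0.063). The median log2 difference was -0.08 over the members and 0.02 over all genes.

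Snord118 encodes U8, a box C/D RNA required for processing of the large-subunit ribosomal RNA. The controls read 9.17, 9.62 and 9.57 on the log2 scale (probe set 10377429), with 10.11, 9.96 and 9.59 in the HSF1 shRNA arrays and 7.52, 7.45 and 8.71 in the RPA1 shRNA arrays. Every RPA1 shRNA array lay below every other array, and array 3 was the least reduced. Snord118 fell 2.96-fold against the control (log2 -1.56 ± 0.30, SE, n = 3 arrays per group, limma adjusted p = 0.0034). Its log2 difference under HSF1 shRNA was 0.43 ± 0.30 (adjusted p = 0.39). Snord118 also stood lower under RPA1 than under HSF1 shRNA, by 3.99-fold (-1.997 ± 0.30, adjusted p = 0.0016), which was the most negative of the 19938 genes in that comparison. A second row for Snord118 held the same values and adds no evidence. Its neighbour Tmem107, a protein-coding gene of the ciliary transition zone, fell too, by -0.32 ± 0.07 (adjusted p = 0.0061), with RPA1 shRNA signals of 8.29, 8.52 and 8.35 against 8.68, 8.74 and 8.69 in the controls.

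Snord61 directs methylation of the small-subunit ribosomal RNA and lies inside Rbmx, the gene of an RNA-binding protein. It read 5.56, 5.96 and 5.81 in the controls, 5.40, 5.62 and 5.29 under HSF1 shRNA and 4.66, 4.66 and 5.40 under RPA1 shRNA. The RPA1 shRNA arrays lay below the controls without overlap and overlapped the HSF1 shRNA arrays. Snord61 fell 1.83-fold (-0.87 ± 0.19, limma adjusted p = 0.007), from signals low in the range of the array, where background was not measured and a fold may be understated.

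Snora44 and Snora16a share the noncoding host Snhg12, whose own transcript was not among the tested genes. Snora44 read 9.88, 10.55 and 10.17 in the controls and 9.49, 9.69 and 9.63 under RPA1 shRNA, with no overlap, and fell 1.51-fold (-0.60 ± 0.17, limma adjusted p = 0.024). Snora16a read 8.78, 8.94 and 9.04 in the controls and 9.10, 9.58 and 9.18 under RPA1 shRNA, again with no overlap but in the other direction, and did not pass (0.36 ± 0.17, adjusted p = 0.14). The 2 members of Snhg12 thus stood 0.96 apart on the log2 scale, the widest gap among the 10 hosts with 2 members; the difference between them was not tested.

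4 further members fell under RPA1 shRNA. Snora3, an H/ACA RNA inside the ribosomal protein gene Rpl27a, read 9.66, 9.67 and 9.77 in the controls and 9.11, 9.23 and 9.48 under RPA1 shRNA, without overlap (-0.43 ± 0.12, limma adjusted p = 0.027). Snord35a, inside Rpl13a, read 10.84, 10.78 and 11.05 against 10.40, 10.46 and 10.64, also without overlap (-0.39 ± 0.10, adjusted p = 0.014). Snord33, inside the same host and shown above, was at -0.09 ± 0.12 (adjusted p = 0.62). Snora30, an H/ACA RNA inside the chromatin remodeller gene Srcap, read 7.87, 7.98 and 7.97 against 7.41, 7.66 and 7.63 (-0.37 ± 0.12, adjusted p = 0.042); it is held by 2 rows with the same values. Snord85 read 7.06, 7.18 and 7.30 against 6.79, 6.88 and 6.86 (-0.34 ± 0.07, adjusted p = 0.0045). In each of the 4 the RPA1 shRNA arrays lay below all controls.

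The 2 members that rose under RPA1 shRNA are both box C/D RNAs that target the small-subunit ribosomal RNA and lie inside ribosomal protein genes. Snord16a, inside Rpl4, read 10.09, 9.94 and 9.98 in the controls, 10.45, 10.50 and 10.21 under HSF1 shRNA and 10.59, 10.70 and 11.08 under RPA1 shRNA, 3 groups in order without overlap. It rose 1.72-fold under RPA1 shRNA (0.78 ± 0.12, limma adjusted p = 0.0011) and stood at 0.38 ± 0.12 under HSF1 shRNA (adjusted p = 0.066). Snord42b, inside Rpl23a, read 9.42, 9.56 and 9.61 in the controls, 9.496, 9.59 and 9.17 under HSF1 shRNA and 9.80, 9.92 and 10.18 under RPA1 shRNA. Its RPA1 shRNA arrays lay above all others, and it rose 1.35-fold (0.44 ± 0.12, adjusted p = 0.023). Snord42a, from the same host, was at -0.11 ± 0.13 (adjusted p = 0.58).

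**Figure D2:**
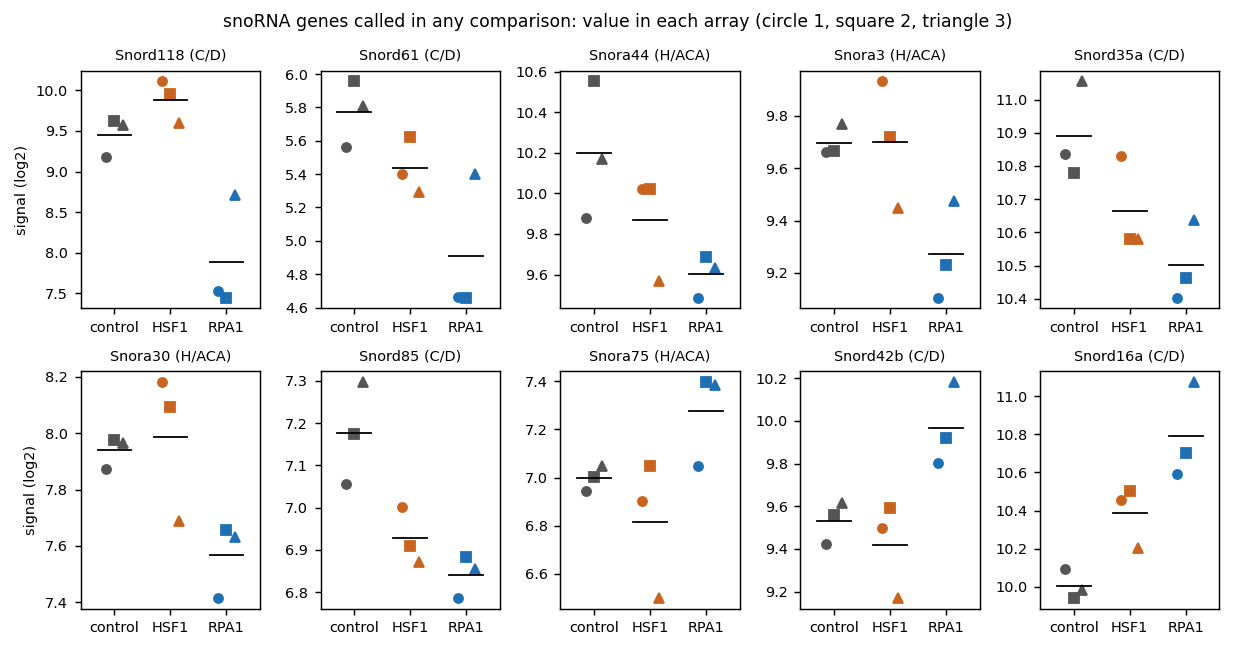
Log2 signal of the 10 snoRNA genes called in any of the 3 comparisons, in each array (circle array 1, square array 2, triangle array 3) with the group mean as a bar; each panel has its own axis, which does not start at 0. Snord118 drops under RPA1 shRNA from 9.17 or more to 8.71 or less, and all RPA1 shRNA arrays of Snord16a (10.59 or more) lie above its controls (10.09 or less).

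Of the 9 calls under RPA1 shRNA, those of Snord118 and Snord16a held under the 20 alternatives tried, and those of Snord61 and Snord85 under the 19 in which they were tested. A filter for genes above the median gene removed these last 2 members from the test. The other 5 calls were lost without some arrays: Snord35a and Snora44 without control array 3 or RPA1 shRNA array 1, Snora44 also without control array 2, and Snord42b without control array 1 or 2 or RPA1 shRNA array 3. Snora3 lost its call without any 1 of the control arrays or RPA1 shRNA array 1 or 2, and Snora30 without these or HSF1 shRNA array 2. The count was 5 without control array 3 (23.3% of all genes) or RPA1 shRNA array 1 (24.1%), and 6 without control array 1 (24.2%) or 2 (23.3%). It was 15 (1 higher, 14 lower) without RPA1 shRNA array 3, when 36.3% of all genes were called.

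HSF1 shRNA against the control asked the same of HSF1. With all arrays box C/D members mostly stood a little lower and the box H/ACA median lay close to the control, but single members seldom passed. This picture depended on HSF1 shRNA array 3. Without it 18 of 31 box C/D and 2 of 20 box H/ACA genes stood below the control. Snord85 was the only member called, 1 of 51 (1.96%) against 16.1% of all genes (9.89% higher, 6.21% lower); 6 members had an unadjusted p under 0.05. Snord85 read 7.06, 7.18 and 7.30 in the controls and 7.002, 6.91 and 6.87 under HSF1 shRNA and fell by 0.25 (-0.25 ± 0.07, limma adjusted p = 0.034). Leaving out array 2 or 3 of either group ended that call. Groups did not overlap for 4 members (37.9% of all genes): Snord85, Snord16a, Snord58b (-0.38 ± 0.13, adjusted p = 0.085) and Snord95 (-0.32 ± 0.15, adjusted p = 0.2). The count was 3 without RPA1 shRNA array 3 (23.6% of all genes) and 2 without RPA1 shRNA array 2 (17%). It was 0 without HSF1 shRNA array 3 (10.2%), control array 2 (10.8%) or control array 3 (9.8%), so the share of all genes moved too.

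RPA1 against HSF1 shRNA tested directly whether the knockdowns differ. 6 of 51 members (11.8%) passed, 3 higher and 3 lower under RPA1 shRNA, against 24.4% of all genes (9.71% higher, 14.7% lower), and 6 did not overlap (34.5% of all genes), with Snord14e and Snord82 (0.13, adjusted p = 0.27) among them. Besides Snord118, Snora3 (-0.43 ± 0.12, limma adjusted p = 0.032) and Snora30 (-0.42 ± 0.12, adjusted p = 0.03) were lower. Snord42b (0.55 ± 0.12, adjusted p = 0.01), Snora75 (0.46 ± 0.14, adjusted p = 0.036) and Snord16a (0.40 ± 0.12, adjusted p = 0.04) were higher. Snora75, an H/ACA RNA inside the nucleolin gene Ncl, read 6.94, 7.001 and 7.05 in the controls, 6.90, 7.05 and 6.5001 under HSF1 shRNA and 7.05, 7.40 and 7.38 under RPA1 shRNA, so the knockdown groups met at 7.05. Of these 6 calls, Snord118 and Snord42b held under every alternative. Snora75 and Snord16a lost theirs without any 1 control array, HSF1 shRNA array 1 or 3, or RPA1 shRNA array 2 or 3, Snord16a also without HSF1 shRNA array 2. Snora3 and Snora30 lost theirs when control array 2, HSF1 shRNA array 1 or 2, or RPA1 shRNA array 1 was left out, Snora3 also without control array 1 or RPA1 shRNA array 2. The count was 2 when control array 2 (21.4% of all genes) or HSF1 shRNA array 1 (17.4%) was left out. It was 3 without control array 1 (21.5%) or RPA1 shRNA array 2 (17.8%), and 9 without RPA1 shRNA array 3 (32.8%).

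By class, 6 of 31 box C/D genes (19.4%) and 3 of 20 box H/ACA genes (15%) were called under RPA1 shRNA, against 30.1% of all genes, with median log2 differences of -0.09 and -0.07. The counts rested on single arrays. Box H/ACA had 0 calls without control array 2, control array 3 or RPA1 shRNA array 1, 1 without control array 1 or RPA1 shRNA array 2, and 5 without RPA1 shRNA array 3. Box C/D had 10 without RPA1 shRNA array 3, and without array 3 of both knockdowns the counts were 13 of 31 and 8 of 20 (35.8% of all genes). With 1 of these control or RPA1 shRNA arrays left out, 23.3% to 36.3% of all genes were called. Both classes had members lower under RPA1 shRNA, and the 2 rises were box C/D genes. Under HSF1 shRNA the medians were -0.17 for box C/D and 0.03 for box H/ACA, against 0.04 over all genes, and 27 of 31 box C/D but 8 of 20 box H/ACA genes stood below the control. Without HSF1 shRNA array 3 these counts were 18 of 31 and 2 of 20, and for box H/ACA they were 5 without control array 3, 12 without array 1 of the controls or of HSF1 shRNA and 16 without HSF1 shRNA array 2. In HSF1 shRNA arrays 1, 2 and 3 the box C/D median was -0.05, -0.06 and -0.36 and the box H/ACA median 0.10, 0.14 and -0.25, so box C/D lay below box H/ACA in each of the 3 arrays. In control arrays 1 to 3 the medians were -0.01, -0.04 and 0.02 for box C/D and -0.06, 0.03 and 0.06 for box H/ACA. In RPA1 shRNA arrays 1 to 3 they were -0.19, -0.18 and 0.11 for box C/D and -0.10, -0.13 and 0.15 for box H/ACA. Box C/D thus lay lower in every RPA1 shRNA array as well, so the order was not seen under HSF1 shRNA alone. All these values share the control mean as baseline. The control arrays therefore lie around 0 by construction and cannot show whether the order holds without a knockdown. Without HSF1 shRNA array 3 and RPA1 shRNA array 3 the HSF1 shRNA medians were -0.06 and 0.13. In RPA1 against HSF1 shRNA the medians were 0.08 and -0.06 with all arrays and -0.10 and -0.24 without those 2. Members are not replicates of a condition, so the difference between the classes is a description.

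**Figure D3:**
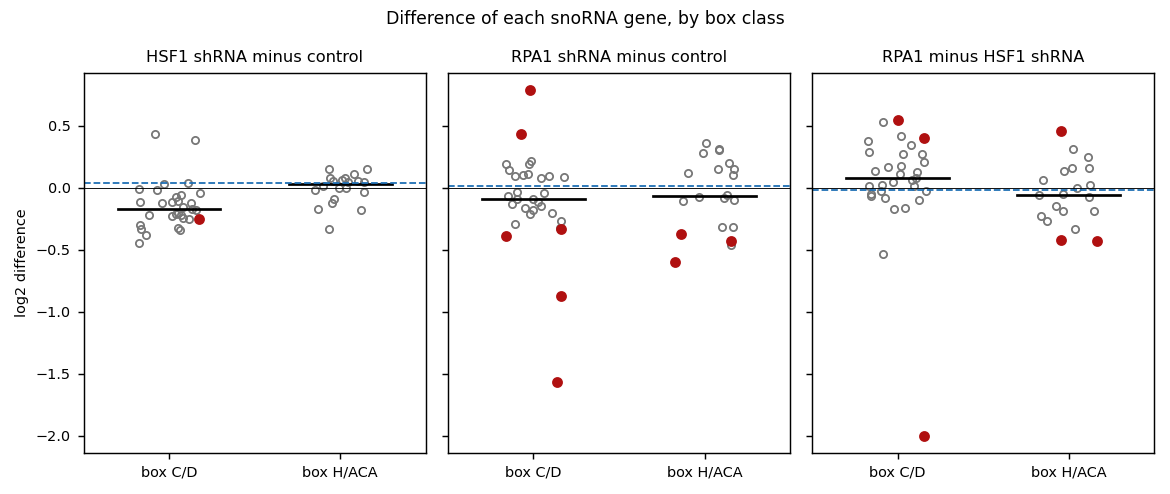
Log2 difference of each of the 51 snoRNA genes in the 3 comparisons, by box class; filled red points passed at a limma adjusted p under 0.05, bars are class medians and the dashed line is the median of all 19938 genes. Under HSF1 shRNA the box C/D median (-0.17) lies below that of box H/ACA (0.03), and Snord118 is the lowest point in both comparisons with RPA1 shRNA.

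Leaving out HSF1 shRNA array 3 and RPA1 shRNA array 3 together was an alternative added after seeing that these 2 arrays stood apart in the members. It gave more calls in each comparison. The median residual SD of the members then was 0.102, against 0.0717 for all genes. Under RPA1 shRNA 21 of 51 members passed, 3 higher and 18 lower (41.2%, against 35.8% of all genes), and all 9 earlier calls were among them. Members that passed in this setting and not with all arrays included Snora33 (-0.62, adjusted p = 0.00088), Snora69 (-0.52, adjusted p = 0.00038), Snora20 (-0.44, adjusted p = 0.0019), Snord49a (-0.45, adjusted p = 0.0021), Snord22 (-0.40, adjusted p = 0.0053) and Snord49b (-0.35, adjusted p = 0.0058), all lower by limma. In RPA1 against HSF1 shRNA 18 passed, 1 higher and 17 lower (35.3%, against 30.8% of all genes). Under HSF1 shRNA 3 passed, all higher (5.88%, against 18.4%): Snord118 (0.58, adjusted p = 0.019), Snord16a (0.47, adjusted p = 0.0028) and Snora2b (0.24, adjusted p = 0.023), and Snord85 no longer did. Since the arrays were chosen on the members themselves, these counts describe 7 arrays and are no independent support.

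Among the other RNAs of the cleavage class that were tested, none passed with all arrays in any comparison. Snord3a, Snord14a and Snord14d, also listed in this class, were not among the members. Snord22 (U22), inside Snhg1, read 8.51, 8.37 and 8.41 in the controls, 8.35, 8.37 and 7.93 under HSF1 shRNA and 7.91, 8.15 and 8.62 under RPA1 shRNA, with overlapping groups (-0.20 ± 0.17 under RPA1 shRNA, limma adjusted p = 0.44). Snord14e (U14), inside the heat shock cognate gene Hspa8, read 9.56, 9.41 and 9.53 in the controls, 9.21, 9.46 and 8.83 under HSF1 shRNA and 9.47, 9.47 and 10.14 under RPA1 shRNA. Its RPA1 shRNA arrays lay just above its HSF1 shRNA arrays, at an adjusted p = 0.08. Snora73a and Snora73b, the U17 copies inside Snhg3, were at 0.15 ± 0.14 and 0.20 ± 0.15 under RPA1 shRNA (adjusted p = 0.5 and 0.36); they are near-identical copies, so their signals may be shared. Of the tested RNAs of this class, only U8 passed with all arrays.

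Snord95, Snord47 and Snord55 are among the snoRNAs often taken as stable references. They are not a full list, so their values do not speak for reference snoRNAs as a group. Snord95, inside Rack1, was at -0.32 ± 0.15 under HSF1 shRNA and 0.09 ± 0.15 under RPA1 shRNA. Snord47, inside the noncoding host Gas5, was at -0.24 ± 0.12 and -0.04 ± 0.12, and Snord57, inside the snoRNP protein gene Nop56, at -0.30 ± 0.12 and -0.33 ± 0.12. Snord55 was at 0.03 ± 0.09 and 0.07 ± 0.09. None of these passed with limma, and only Snord57 had RPA1 shRNA arrays (12.28, 12.29 and 12.35) wholly below its controls (12.90, 12.43 and 12.56). Snora52, inside Rplp2, had the highest mean signal (13.6) and differences of 0.00 ± 0.08 and -0.06 ± 0.08; probe sets differ in brightness, so this does not rank the RNAs.

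For 27 members in 23 hosts the host was also tested. 5 of these snoRNAs and the hosts of 9 passed under RPA1 shRNA (30.1% of all genes did), and in 0 pairs did both. The hosts of the called members were near the control: Rpl4 at 0.05 ± 0.04, Rpl23a at -0.05 ± 0.05, Rbmx at 0.13 ± 0.09, Rpl27a at -0.09 ± 0.05 and Srcap at 0.12 ± 0.05 on the log2 scale, none of them called. Among hosts that passed, nucleolin (Ncl) rose by 0.33 ± 0.05 (adjusted p = 0.00097), the importin gene Ipo7 by 0.21 ± 0.07 (0.043) and Kansl2 by 0.18 ± 0.05 (0.018), while the elongation factor genes Eef1b2 (-0.23 ± 0.06, 0.014) and Eef2 (-0.20 ± 0.05, 0.0098) fell. The ribosome biogenesis gene Wdr43 rose by 0.39 ± 0.09 (0.011). The snoRNAs of the hosts that rose did not pass but stood above the control: Snora75 in Ncl at 0.28, Snora23 in Ipo7 at 0.31, Snora2b in Kansl2 at 0.15 and Snord53 in Wdr43 at 0.15. Snora41 in Eef1b2 and Snord37 in Eef2, whose hosts fell, were at 0.10 and 0.09. The host Rps3a1 fell too (-0.25 ± 0.07, limma adjusted p = 0.028), with Snord73a at -0.18 and Snord73b at 0.19. The difference between a host and its snoRNA was not tested. Across the 27 pairs, which share arrays and in part hosts, the Pearson correlation of the differences was 0.03 under HSF1 shRNA and 0.14 under RPA1 shRNA, given as a description. In RPA1 against HSF1 shRNA 2 pairs passed in both and the same way, Snord16a with Rpl4 (0.15 ± 0.04, adjusted p = 0.035) and Snora75 with Ncl (0.18 ± 0.05, adjusted p = 0.026).

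**Figure D4:**
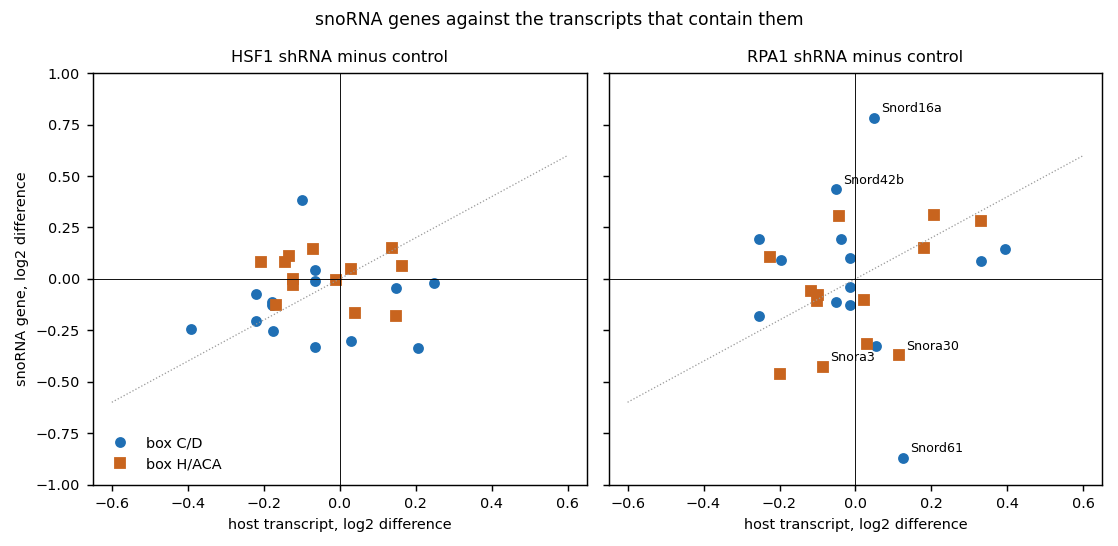
Log2 difference of 27 snoRNA genes (vertical) against that of the transcript of the gene that contains them (horizontal), for both knockdowns; the dotted line marks equal differences and circles and squares the box classes. The labelled members were called under RPA1 shRNA and lie off the line, with hosts within 0.13 of the control.

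Of 20 noncoding genes listed as hosts or neighbours of snoRNAs, 8 were tested. Among these only Gas5 was the host of a member, so the others do not read the host transcripts of the snoRNAs studied here. Gas5, which carries Snord47, fell under HSF1 shRNA (-0.39 ± 0.10, limma adjusted p = 0.021), stood at -0.01 ± 0.10 under RPA1 shRNA, and was higher under RPA1 than HSF1 shRNA (0.38 ± 0.10, adjusted p = 0.018). The imprinted gene Meg3 fell under both, by -0.41 ± 0.07 (adjusted p = 0.0039) and -0.46 ± 0.07 (adjusted p = 0.00089). Snhg16 was higher under RPA1 than HSF1 shRNA (0.32 ± 0.10, adjusted p = 0.043). The other members of the list did not pass in any comparison.

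Among genes of the proteins that build, hold and trim snoRNAs, most of those that passed rose. Of 28 tested, 12 rose and 0 fell under HSF1 shRNA (42.9%, against 16.1% of all genes; median 0.20 against 0.04), and 12 rose and 2 fell under RPA1 shRNA (50%, against 30.1%; median 0.14 against 0.02). Nhp2, an H/ACA core protein gene, rose by 0.58 ± 0.07 under HSF1 shRNA (limma adjusted p = 0.00061) and 0.88 ± 0.07 under RPA1 shRNA (2.1e-05). Fbl, which encodes the box C/D methyltransferase fibrillarin, rose by 0.22 ± 0.05 (0.013) and 0.44 ± 0.05 (0.00015). The core genes Nop58 (0.32 ± 0.06, 0.0033) and Gar1 (0.21 ± 0.04, 0.0057) rose under RPA1 shRNA, and Nop10 rose under HSF1 shRNA (0.23 ± 0.06, 0.038). Nop56, Snu13 and Dkc1, which encodes dyskerin, did not pass under either.

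Assembly and processing genes followed both patterns. The assembly factor gene Nufip1 (0.28 ± 0.07 and 0.50 ± 0.07), the nucleolar chaperone gene Nolc1 (0.21 ± 0.04 and 0.43 ± 0.04), Shq1 (0.39 ± 0.06 and 0.24 ± 0.06) and Ruvbl1 (0.30 ± 0.05 and 0.21 ± 0.05) rose under HSF1 and RPA1 shRNA in turn. So did Dbr1, the enzyme that opens intron lariats (0.41 ± 0.06 and 0.46 ± 0.06), and the noncanonical poly(A) polymerase gene Tent4b (0.26 ± 0.06 and 0.41 ± 0.06). Coil, which encodes the Cajal body protein coilin (0.26 ± 0.06), and the exosome gene Exosc3 (0.25 ± 0.06) rose under HSF1 shRNA. The cap methylase gene Tgs1 (0.26 ± 0.08) and the exosome gene Exosc10 (0.16 ± 0.05) rose under RPA1 shRNA. Naf1, an H/ACA assembly factor gene, rose under HSF1 shRNA (0.18 ± 0.05, limma adjusted p = 0.04) and fell under RPA1 shRNA (-0.17 ± 0.05, adjusted p = 0.034), and the difference between knockdowns passed (-0.35 ± 0.05, adjusted p = 0.0014). Rpap3, of the assembly chaperone complex, fell under RPA1 shRNA (-0.26 ± 0.07, adjusted p = 0.017). In RPA1 against HSF1 shRNA 5 of the 28 genes were higher and 3 lower (28.6%, against 24.4%). Under HSF1 shRNA the count of 12 was 7 without array 1 of the controls (10.1% of all genes) or of HSF1 shRNA (12.3%). It was 6 when control array 3 was left out (9.8%).

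**Figure D5:**
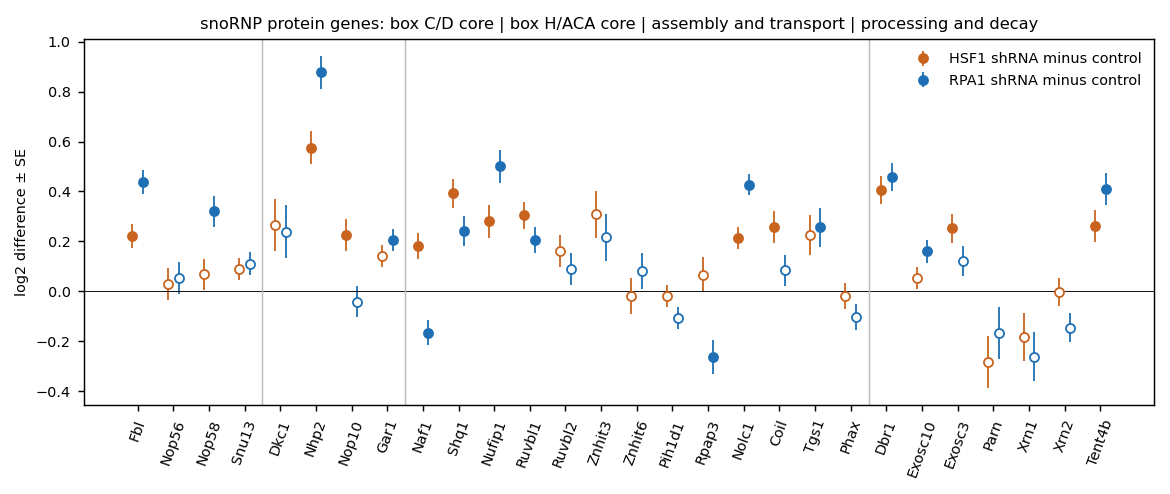
Log2 difference ± SE (limma, n = 3 arrays per group) of the 28 tested genes of snoRNP proteins, grouped by role, under HSF1 shRNA (orange) and RPA1 shRNA (blue); filled points passed at an adjusted p under 0.05. Nhp2 has the largest rises, 0.58 and 0.88, and the points of Naf1 lie on opposite sides of 0.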

How the data were processed

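The data are 9 whole-transcript Affymetrix arrays (Mouse Gene 1.0 ST), 3 per group. The authors made the deposited values with RMA in Partek 6.5, per the submitters' processing notes. Their scale is not given in the sources used here; the range of the values was that of log2 signals, and the deposited log2 values were used as given. Of 35557 rows, 21789 had 1 gene symbol, 1621 had several (not named by gene) and 12147 were unlisted; per gene the row with the highest mean stood for it (19938 genes).

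Using R 4.3.3 and limma 3.58.1, the 3 group means were fitted over the 9 arrays (6 residual and 3.51 prior degrees of freedom), and 3 contrasts were tested with lmFit and eBayes. P-values were two-sided and adjusted by Benjamini-Hochberg over the 19938 genes. Called means an adjusted p under 0.05, and the errors are limma's SE with n = 3. An exact test of 3 arrays against 3 cannot go below 0.1. The script was tested on simulated data. Hosts are genes of the RefSeq table (GRCm38.p6) whose span contains the member, the shortest where several do (3 members); the strand of the snoRNA genes was not known. The number of arrays limits the precision. The hosts of some members are not reported here.

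Members and lists were chosen with earlier results of these data known. Named are members called or not overlapping, those at the ends of the signal range, fixed groups of members, and protein, host and marker list genes that passed, the largest where many did. Shown sequences, motifs and members picked from the setting without 2 arrays were chosen after their values were seen. Other scalings, a low-signal filter, array weights, a replicate block, only the arrays compared and each array left out were tried.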

Additional observations from a re-analysis of the deposited data

Results flagged for a closer look

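41 rows that name a snoRNA among several gene symbols were left out of every comparison, since a row with several symbols names no single gene. They were flagged because rows outside the comparisons carried a difference from the control arrays that passed in the same limma model fitted to all rows. 24 of them list the same 3 symbols and rose under RPA1 shRNA, by 0.86 to 1.08 on the log2 scale (20.3% of all rows passed). Their signals were low, with control means of 5.89 to 6.11 against 8.39 for the median gene. Their SD was 0.42 to 0.43 under RPA1 shRNA and 0.07 to 0.18 in the controls. Of these, 18 rows held the same values, so the 24 rows are 7 distinct profiles and not 24 measurements. Under RPA1 shRNA the distinct profiles, named by probe set, differed from the control by 1.0623 (10564159), 1.0827 (10564161), 1.0409 (10564163, shared by 18 rows), 0.8603 (10564165), 0.858 (10564169), 1.0445 (10564177) and 1.0795 (10564183). Under HSF1 shRNA the same rows stood at 0.52 to 0.75, of which probe set 10564183 passed at 0.7502 (9.72% of all rows passed). Probe set 10432176, which lists 2 other symbols, differed from the control by 0.5472 under HSF1 shRNA and fell by 0.63 under RPA1 shRNA. Probe sets 10576216 (-0.82, adjusted p = 0.014, and -0.72 against HSF1 shRNA) and 10481101 (-0.44, adjusted p = 0.035) also fell under RPA1 shRNA by limma. No cause was tested for these rows.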

How the results depend on the processing

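The count of called snoRNA genes under HSF1 shRNA was 1 in the reported fit, 2 with median scaling, 3 with only the 6 arrays compared and 0 with a replicate block. It was 5 with array weights (26.6% of all genes) and 3 without HSF1 shRNA array 3 and RPA1 shRNA array 3 (18.4%). Under RPA1 shRNA it was 9, and 23 with array weights (45.5% of all genes) or 21 without those 2 arrays (35.8%). In RPA1 against HSF1 shRNA it was 6, and 10 with array weights (39.8%), 2 with only the 6 arrays compared and 18 without those 2 arrays (30.8%). Leaving out each array in turn gave 0 to 3, 5 to 15 and 2 to 9 called members and 6 to 17, 10 to 14 and 6 to 11 called snoRNP protein genes in the 3 comparisons. The shares of all genes called then ran from 9.8% to 23.6%, 23.3% to 36.3% and 16.2% to 32.8%. In the same order, leaving out each array gave box C/D medians of -0.23 to -0.06, -0.18 to -0.01 and -0.04 to 0.16 and box H/ACA medians of -0.05 to 0.13, -0.12 to 0.00 and -0.15 to 0.01. Without those 2 arrays the box C/D median in RPA1 against HSF1 shRNA went from 0.08 to -0.10. Snord22 turned from 0.01 to -0.33 (limma adjusted p = 0.022) in RPA1 against HSF1 shRNA without those 2 arrays. The cause of these changes was not tested. Same-numbered arrays had correlations of -0.16 to 0.09 of their deviations. Differently numbered arrays were not compared, so these values cannot tell whether the numbers pair the arrays, and the labels do not say. Array weights were lowest for RPA1 shRNA array 3 (0.213) and highest for RPA1 shRNA array 1 (3.08). Signal over background was not measured, which limits the folds of dim members such as Snord61.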
